A study of Mus musculus with 44 samples.

Results

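The genes of the mitochondrial ribosome were followed in microglia of mice that carried an amyloid transgene and, in most groups, the T96K variant of Trem2, a microglial cell-surface receptor that binds lipids. Every gene whose symbol was Mrpl or Mrps, a number and at most 1 further letter was taken, which gave 76 of the 37583 genes of each deposited table. Of these, 75 reached 1 RPKM (reads per kilobase of gene, scaled to library size) in 5 or more libraries of the female table, and 75 did so in the male table, among 14591 and 13845 genes kept in all. The gene not kept was Mrpl53, listed at 0 RPKM in all 27 female libraries and in 16 of 17 male libraries. Another gene on the same strand, Ccdc142, covers 87.1% of its exon bases.

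The libraries were made from CD11b and CD45 sorted brain microglia of mice aged 8 months. NonTg females (n = 5 libraries) carried no amyloid transgene and 2 normal Trem2 alleles. All other mice carried 5xFAD, a set of mutant human amyloid precursor protein and presenilin transgenes driven by the neuronal Thy1 promoter, so that microglia meet amyloid made by neurons. Among 5xFAD females, 6 libraries were Trem2+/+, 9 were Trem2 T96K/+ and 7 were Trem2 T96K/T96K. The male libraries were all 5xFAD, with 5 Trem2+/+, 6 T96K/+ and 6 T96K/T96K libraries. Males without the transgene were not analysed here. The sources used here do not say how the T96K allele was made or on which strain. Each library number was read as 1 mouse, which the labels do not state, so a p-value here reflects library-to-library spread, which may be technical.

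The mitochondrial ribosome translates the few proteins encoded by mitochondrial DNA, which are core subunits of the respiratory chain and the ATP synthase. Its ribosomal RNA comes from mitochondrial DNA, whereas its proteins are encoded in the nucleus, made in the cytosol and imported. Some of these proteins have bacterial counterparts and others are found in mitochondria but not in bacteria. The small subunit binds the messenger RNA and reads its codons, and the large subunit joins amino acids. By these roles the 75 kept genes held 29 large-subunit proteins with a bacterial counterpart, 19 large-subunit proteins specific to mitochondria, 15 small-subunit proteins with a bacterial counterpart and 11 specific to mitochondria. Mrps28 and Mrpl55 were listed as specific to mitochondria, although the nomenclature of ribosomal proteins gives both a bacterial counterpart. Mrps18a and Mrps30 were counted with the large subunit, where their proteins lie, and Mrps36, whose product is now known as a part of the 2-oxoglutarate dehydrogenase complex, was set apart.

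Nuclear genes for mitochondrial proteins are known targets of NRF1, of ETS family factors such as GABP, and of YY1, so the 250 bases before the annotated start were searched for their motifs on both strands. RefSeq promoter sequences on the GRCm38.p6 build were matched by symbol for 67 of 76 members, in 73 windows. The palindromic NRF1 motif was found in 9 windows of members (12.3%) against 3.74% of the 32851 windows of all genes. The ETS motif CCGGAAG was found in 17 windows (23.3%, against 6.91%) and the YY1 motif AAGATGGCG in 2 windows (2.74%, against 0.606%). The common promoter motifs CCAAT and GGGCGG (bound by SP1) were found in 38.4% and 49.3% of the windows, against 33.8% and 32.7% of all. A match is a string of letters, not a bound site. Windows of 5 members called higher in 5xFAD females and of Mrpl49, the 1 member called lower, are printed 5′ to 3′ on the strand of the gene, since the results turn on these genes. Capitals mark a match to the NRF1, ETS or YY1 motif in either orientation. The window of Mrpl52 lies at chr14:54426659-54426908 on the + strand and holds an ETS match. That of Mrps21 at chr3:95871515-95871764 on the - strand and that of Mrpl30 at chr1:37890227-37890476 on the + strand each hold an NRF1 match, and that of Mrpl36 at chr13:73330759-73331008 on the + strand holds a YY1 match. The windows of Mrpl33 at chr5:31613701-31613950 on the + strand and of Mrpl49 at chr19:6057756-6058005 on the - strand hold no match to these 3 motifs.
Mrpl52: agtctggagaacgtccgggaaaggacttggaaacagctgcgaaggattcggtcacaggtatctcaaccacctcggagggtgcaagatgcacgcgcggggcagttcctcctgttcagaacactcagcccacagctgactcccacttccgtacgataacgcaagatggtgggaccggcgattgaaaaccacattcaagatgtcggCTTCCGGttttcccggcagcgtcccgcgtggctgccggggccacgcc
Mrps21: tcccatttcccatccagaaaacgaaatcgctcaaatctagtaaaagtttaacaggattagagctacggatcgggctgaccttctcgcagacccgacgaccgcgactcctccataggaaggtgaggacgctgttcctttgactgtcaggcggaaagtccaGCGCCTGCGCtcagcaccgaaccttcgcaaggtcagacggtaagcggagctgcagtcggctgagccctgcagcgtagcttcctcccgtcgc
Mrpl36: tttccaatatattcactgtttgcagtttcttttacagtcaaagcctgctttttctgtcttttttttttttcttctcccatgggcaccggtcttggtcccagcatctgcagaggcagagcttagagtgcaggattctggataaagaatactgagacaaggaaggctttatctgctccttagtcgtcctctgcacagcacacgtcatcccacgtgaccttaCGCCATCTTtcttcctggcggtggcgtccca
Mrpl30: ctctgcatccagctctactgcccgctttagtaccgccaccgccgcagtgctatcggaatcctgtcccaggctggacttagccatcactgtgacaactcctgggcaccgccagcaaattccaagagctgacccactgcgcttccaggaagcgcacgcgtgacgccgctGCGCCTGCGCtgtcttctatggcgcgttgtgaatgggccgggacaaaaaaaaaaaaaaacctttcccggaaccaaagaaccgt
Mrpl33: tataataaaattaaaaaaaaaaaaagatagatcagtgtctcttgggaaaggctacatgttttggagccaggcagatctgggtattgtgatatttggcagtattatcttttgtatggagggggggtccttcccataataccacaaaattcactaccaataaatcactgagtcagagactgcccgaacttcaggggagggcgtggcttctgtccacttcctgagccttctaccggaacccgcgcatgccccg
Mrpl49: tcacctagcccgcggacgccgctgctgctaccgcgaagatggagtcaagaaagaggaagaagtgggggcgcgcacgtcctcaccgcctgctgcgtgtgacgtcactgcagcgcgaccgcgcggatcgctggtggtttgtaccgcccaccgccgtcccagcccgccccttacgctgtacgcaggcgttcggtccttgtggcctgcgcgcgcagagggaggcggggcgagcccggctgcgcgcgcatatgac
Among members with a window, the NRF1 motif stood before 3 of 18 genes called higher in 5xFAD Trem2+/+ females (Mrpl30, Mrpl32 and Mrps21) and before 6 of the other 48. The ETS motif stood before 3 of 18 (Mrpl51, Mrpl52 and Mrps18c) and 13 of 48. A protein-coding gene that started within 1000 bases on the opposite strand and ran the other way was annotated for 16 of 76 members (21.1%), against 1601 of 22380 protein-coding genes (7.15%), in the mm9 annotation.

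The depth of a library was 5.89 to 42.4 M gene-assigned reads, with 10 deep libraries (26.5 M or more) and 34 shallow ones (15.99 M or fewer). Each group held 1 or 2 deep libraries, and no label names a batch. The authors' scaling was separate for each sex, so genotypes were compared within a sex. The sum of all RPKM of a library, in units of 1000 RPKM, was 277 to 379 in NonTg females, against 366 to 644, 407 to 542 and 373 to 563 in 5xFAD Trem2+/+, T96K/+ and T96K/T96K females. The library labelled female T96K/+ 22 goes against its sex label, and member counts in comparisons of female T96K/+ libraries are given with and without it. Microglial markers were detected in every group, with a summed level of 3056 to 9651 RPKM over 10 genes in NonTg females and 4668 to 12212 in 5xFAD Trem2+/+ females. Endothelial markers, of cells that the sort should leave out, summed to 1255 to 2782 RPKM over 8 genes in NonTg females. The sums were 448 to 1023 in 5xFAD Trem2+/+, 447 to 1594 in T96K/+ and 803 to 2541 in T96K/T96K females, and none of the 8 was at 0 in any group. Neutrophil markers, also 8 genes, had a median sum of 354 RPKM in NonTg females. It was 931, 914 and 1910 in Trem2+/+, T96K/+ and T96K/T96K females, with ranges that overlapped NonTg. The deep Trem2+/+ library 25 had the highest neutrophil sum of its group (6117) and the lowest microglial sum (4668).

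In the female table the members' mean RPKM over the 27 libraries ran from 1.27 to 94.2 with a median of 14.3, and 64 of 75 lay above the median of all kept genes, 6.13 RPKM. RPKM is scaled by the annotated gene length, which can exceed that of the transcript with the longest coding sequence. It was 2424 against 918 bases for Mrps34 and 8171 against 1223 for Mrpl13, but 407 against 412 for Mrpl52. The order of levels between genes therefore depends on these lengths too. The highest were Mrpl42 at 94.2 ± 23.7 RPKM (SD, n = 27) and Mrpl52 at 94.1 ± 32.6, which did not differ beyond their spread, then Mrpl4 at 54.1 ± 6.49 and Mrpl36 at 48.6 ± 12.98. The lowest were Mrps34 at 1.27 ± 0.330, Mrps18b at 2.99 ± 0.747, Mrpl47 at 3.36 ± 0.576 and Mrps25 at 3.38 ± 0.868 RPKM, of which the last 3 lay within each other's spread. Mrps34 reached 1 RPKM in 21 of 27 libraries, the filter asking for 5. Exons of other genes cover 77.8% of the exon bases of Mrps34 (Mapk8ip3 and Nme3) and 53.7% of those of Mrps25 (Nr2c2, antisense), and the libraries do not mark the strand, so the values of both are uncertain. Levels of the members differed between genes far more than between libraries. The coefficient of variation of a member within a genotype group had a median of 10.6 to 20.5% over the 7 groups. Members also moved together between libraries of 1 genotype: after each group mean was subtracted, pairs of members had a median correlation of 0.41 over the 27 female libraries and 0.25 over the 17 male libraries, as a description of libraries that share depth and cell makeup.

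In 5xFAD Trem2+/+ females, 22 of 75 members were higher than in NonTg females and 1, Mrpl49, was lower. The test was limma on log2(RPKM + 1) with Benjamini-Hochberg adjustment over all 14591 genes, and a gene was called at an adjusted p under 0.05. Of all genes tested, 23.6% were called in either direction and 13.5% higher. The median log2 difference of the members was 0.29, against 0.04 for all genes, and 63 of 75 members had a positive difference. That direction holds for RPKM as deposited: with each library rescaled to an equal sum of RPKM, the all-gene median shifted to −0.46, the members' median turned to −0.29, and 3 members were called higher and 35 lower, so that the members' median lay 0.25 above that of all genes as deposited and 0.17 above it after rescaling. In bulk RNA, fewer cells of a type and less RNA per cell cannot be told apart.

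The number of calls changed when single libraries were left out. Leaving out 1 library at a time gave 7 to 26 members called, with 7 without NonTg 4 or without Trem2+/+ 25, 11 without NonTg 24, 12 without NonTg 10, 12 without Trem2+/+ 1, 15 without Trem2+/+ 7 and 14 without Trem2+/+ 13. The members' median stayed between 0.22 and 0.34 over these fits. The share of all genes called in each of these fits is not given here, so the changes in count are not shown to be particular to the members. Endothelial markers fell beside these rises, with 8 of 8 genes called lower and a median log2 difference of −1.31. With the mean levels of endothelial and oligodendrocyte markers as covariates, 0 members were called by limma and the members' median was 0.13 (all genes 0.03). The part of other cells in the result was not tested beyond this, and neutrophil markers were not among the covariates. The share of all genes called with the covariates is not given here, so the count of 0 members has no background beside it.

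**Figure D1:**
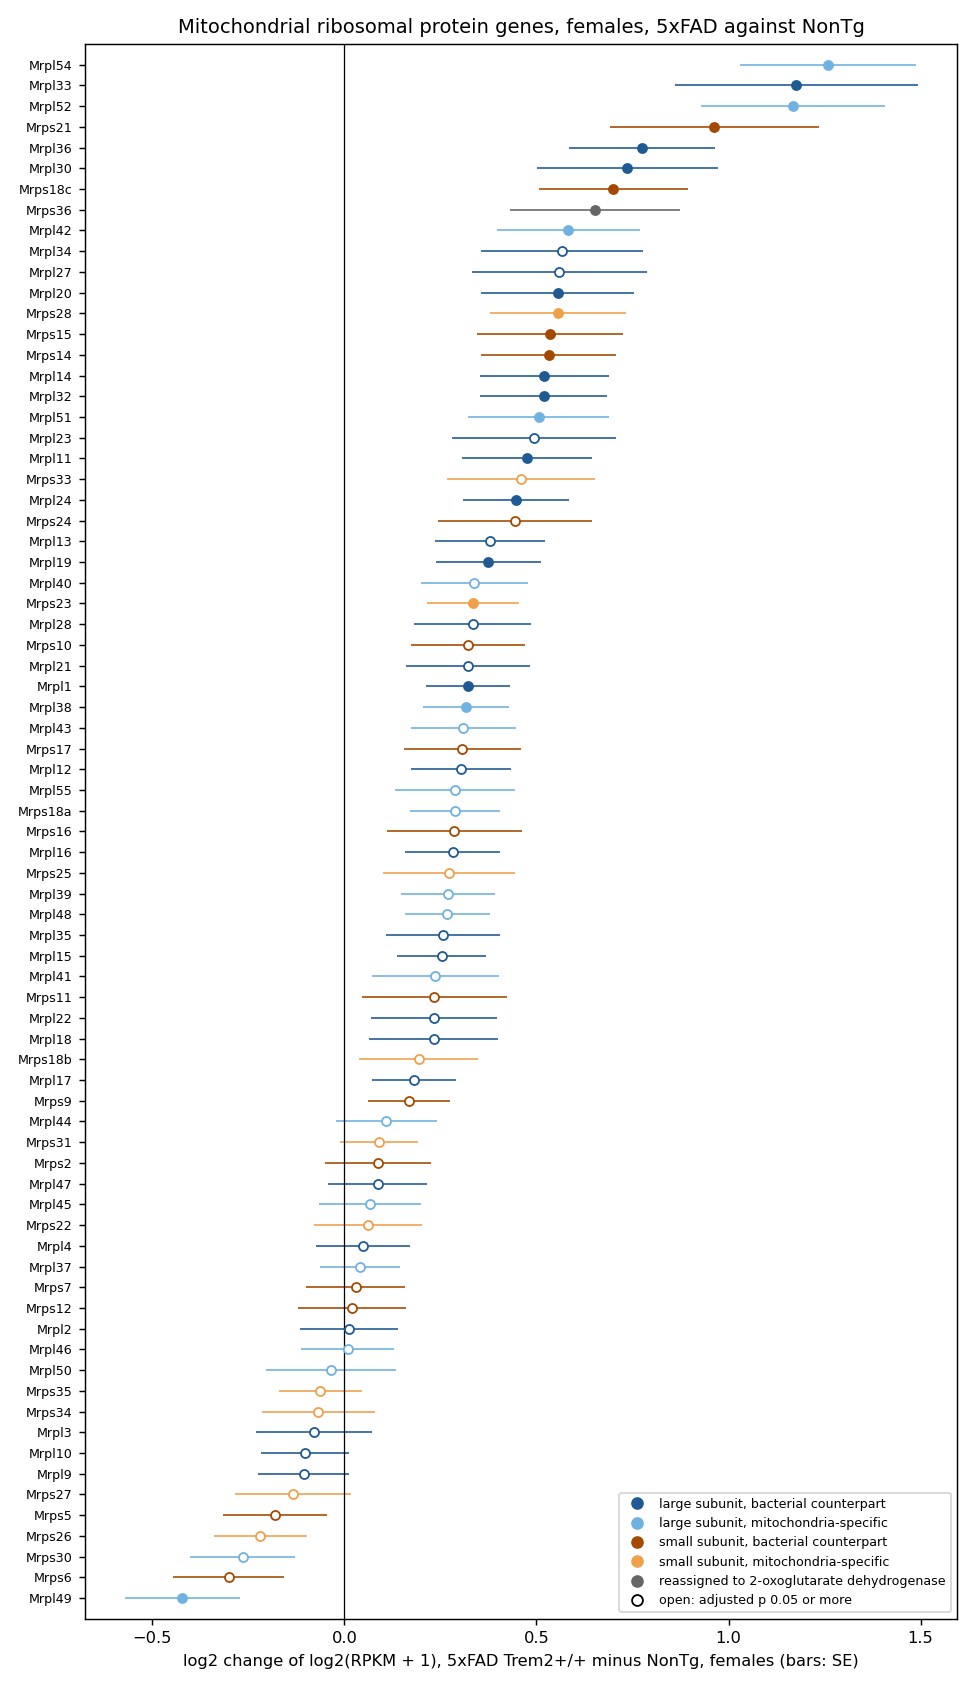
Log2 difference of each of the 75 members between female 5xFAD Trem2+/+ (n = 6) and NonTg (n = 5) libraries on the log2(RPKM + 1) scale, with bars for the standard error, colours for subunit and bacterial origin, and filled points for adjusted p under 0.05 (limma). The 22 filled points on the right run from Mrpl54 at 1.26 down to 0.32, and Mrpl49 at −0.42 is the filled point on the left; with libraries rescaled to an equal sum of RPKM the median of all 75 is −0.29.

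Large-subunit proteins with a bacterial counterpart included 10 of 29 called higher and 0 called lower, with a median difference of 0.32. Mrpl33 (ENSMUSG00000029142, chromosome 5, 31899308 to 32004345, + strand of mm9) encodes one of the smallest proteins of the large subunit. It stood at 2.41, 4.97, 6.53, 7.64 and 7.87 RPKM in the 5 NonTg libraries and from 7.09 to 24.3 with a median of 15.5 in the 6 Trem2+/+ libraries. The 2 groups overlapped, with 1 Trem2+/+ library inside the NonTg range and the other 5 above it. The log2 difference was 1.18 ± 0.32 (SE, limma adjusted p = 0.00806), from a mean of 5.88 ± 2.26 to 14.7 ± 6.06 RPKM (SD). Mrpl36 (ENSMUSG00000021607, chromosome 13, 73468457 to 73469623, + strand), another very small protein of the large subunit, stood at 22.8, 30.04, 37.1, 37.8 and 40.2 RPKM in NonTg and from 43.4 to 80.5 with a median of 58.6 in Trem2+/+ libraries. Every Trem2+/+ library lay above every NonTg library, and the log2 difference was 0.77 ± 0.19 (adjusted p = 0.00419). Mrpl30 (ENSMUSG00000026087, chromosome 1, 37947322 to 37955380, + strand) stood at 7.59, 9.09, 9.85, 12.05 and 13.5 RPKM in NonTg and from 12.8 to 30.8 with a median of 17.7 in Trem2+/+ libraries. The groups overlapped, and the deep Trem2+/+ library 25 was the highest by a wide margin. The log2 difference of Mrpl30 was 0.74 ± 0.24 (adjusted p = 0.0243), and the call was lost without NonTg 4, 10 or 24 or without Trem2+/+ 25. The other called genes of this class were Mrpl1, Mrpl11, Mrpl14, Mrpl19, Mrpl20, Mrpl24 and Mrpl32, with log2 differences from 0.32 (Mrpl1) to 0.56 (Mrpl20). Mrpl4, among the most abundant members, was at 53.5 ± 7.58 RPKM in NonTg and 55.3 ± 7.59 in Trem2+/+ libraries, a log2 difference of 0.05 ± 0.12 (adjusted p = 0.817).

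Large-subunit proteins specific to mitochondria included 5 of 19 called higher and 1 called lower, with a median difference of 0.27. Mrpl54 (ENSMUSG00000034932, chromosome 10, 80727458 to 80729679, - strand) had the largest rise of all members. It stood at 13.2, 17.1, 20.3, 26.8 and 30.4 RPKM in NonTg and from 38.1 to 71.7 with a median of 51.4 in Trem2+/+ libraries. No library of one group reached the other, and the mean went from 21.6 ± 7.02 to 52.1 ± 12.7 RPKM, a log2 difference of 1.26 ± 0.23 (adjusted p = 0.000263). Mrpl52 (ENSMUSG00000010406, chromosome 14, 55045746 to 55048587, + strand) stood at 31.6, 37.03, 51.2, 57.5 and 81.6 RPKM in NonTg and from 82.2 to 159.2 with a median of 112.8 in Trem2+/+ libraries. These groups were just apart, with the lowest Trem2+/+ library barely above the highest NonTg library, which was a deep one. The log2 difference of Mrpl52 was 1.17 ± 0.24 (adjusted p = 0.000903). Mrpl42, Mrpl51 and Mrpl38 were the other 3 called higher, at 0.58, 0.51 and 0.32. Mrpl49 (ENSMUSG00000007338, chromosome 19, 6053630 to 6057758, - strand), which starts 135 bases from the start of Fau, a cytosolic ribosomal protein gene on the opposite strand, was the member called lower: it stood at 10.9, 17.1, 17.4, 18.8 and 18.8 RPKM in NonTg and from 8.64 to 14.9 with a median of 12.2 in Trem2+/+ libraries. NonTg library 10 lay within the Trem2+/+ range and the other 4 NonTg libraries above all of it. The log2 difference was -0.42 ± 0.15 (adjusted p = 0.0408), and the call was lost in 8 of the 11 fits that left out 1 library. The proteins of Mrpl44 and Mrpl45, the second of which anchors the human ribosome to the inner membrane, belong here too, and their genes were not called, at 0.11 and 0.07.

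Of the large-subunit genes 15 of 48 were called higher and 1 lower, and of the small-subunit genes 6 of 26 were called higher and 0 lower, with median differences of 0.30 and 0.21. The difference between the subunits was not tested. Among small-subunit genes listed with a bacterial counterpart, 4 of 15 were called higher (Mrps21, Mrps18c, Mrps15 and Mrps14), with a median of 0.29. Mrps21 (ENSMUSG00000054312, chromosome 3, 95666557 to 95675442, - strand) stood at 11.3, 14.5, 22.8, 22.9 and 26.6 RPKM in NonTg and from 18.7 to 55.2 with a median of 41.6 in Trem2+/+ libraries. A single Trem2+/+ library lay within the NonTg range and the other 5 above it. The log2 difference was 0.96 ± 0.27 (adjusted p = 0.0116), and the call was lost without NonTg 24. Mrps18c (ENSMUSG00000016833, chromosome 5, 101227646 to 101233490, + strand) stood at 22.5, 24.3, 26.1, 29.4 and 32.3 RPKM in NonTg and from 25.7 to 65.8 with a median of 45.3 in Trem2+/+ libraries. Again 1 Trem2+/+ library lay within the NonTg range, and the log2 difference was 0.70 ± 0.19 (adjusted p = 0.01). Its paralogs Mrps18b, in the small subunit, and Mrps18a, in the large, were not called, at 0.19 ± 0.16 and 0.29 ± 0.12 (adjusted p = 0.403 and 0.0773). Among small-subunit genes listed as specific to mitochondria, 2 of 11 were called higher (Mrps28 at 0.55 and Mrps23 at 0.33), with a median of 0.09. With Mrps28 and Mrpl55 counted among the genes with a bacterial counterpart, the counts called higher were 5 of 16 and 1 of 10 in the small subunit (medians 0.30 and 0.08) and 10 of 30 and 5 of 18 in the large (medians 0.32 and 0.27). Mrps36, the gene of the 2-oxoglutarate dehydrogenase component, went from 4.62 ± 0.839 to 8.14 ± 2.96 RPKM, with overlapping groups and a log2 difference of 0.65 ± 0.22 (adjusted p = 0.0323); the call was lost in 6 of the 11 fits that left out 1 library.

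Members known from inherited mitochondrial disease in humans were found on both sides of the threshold. Mrps14, Mrps23, Mrps28 and Mrpl24 are among the genes called higher above, and the following were not called. Mrpl12, whose human protein also binds the mitochondrial RNA polymerase, had a log2 difference of 0.30 ± 0.13 (adjusted p = 0.0946). Mrps16 followed at 0.29 ± 0.18, with a wider standard error. Mrpl44, Mrps2, Mrps22, Mrps7, Mrpl3 and Mrps34 were at 0.11, 0.09, 0.06, 0.03, -0.08 and -0.07, with standard errors of 0.13 to 0.15. Mrps12, at the decoding site, was at 0.02 ± 0.14. A p that misses the threshold does not show that these levels were the same. After rescaling to an equal sum the differences of Mrpl12, Mrpl44, Mrps2, Mrps22, Mrps7, Mrps12, Mrpl45 and Mrps18a turned negative, as did those of Mrpl4, Mrpl42 and Mrpl47.

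**Figure D2:**
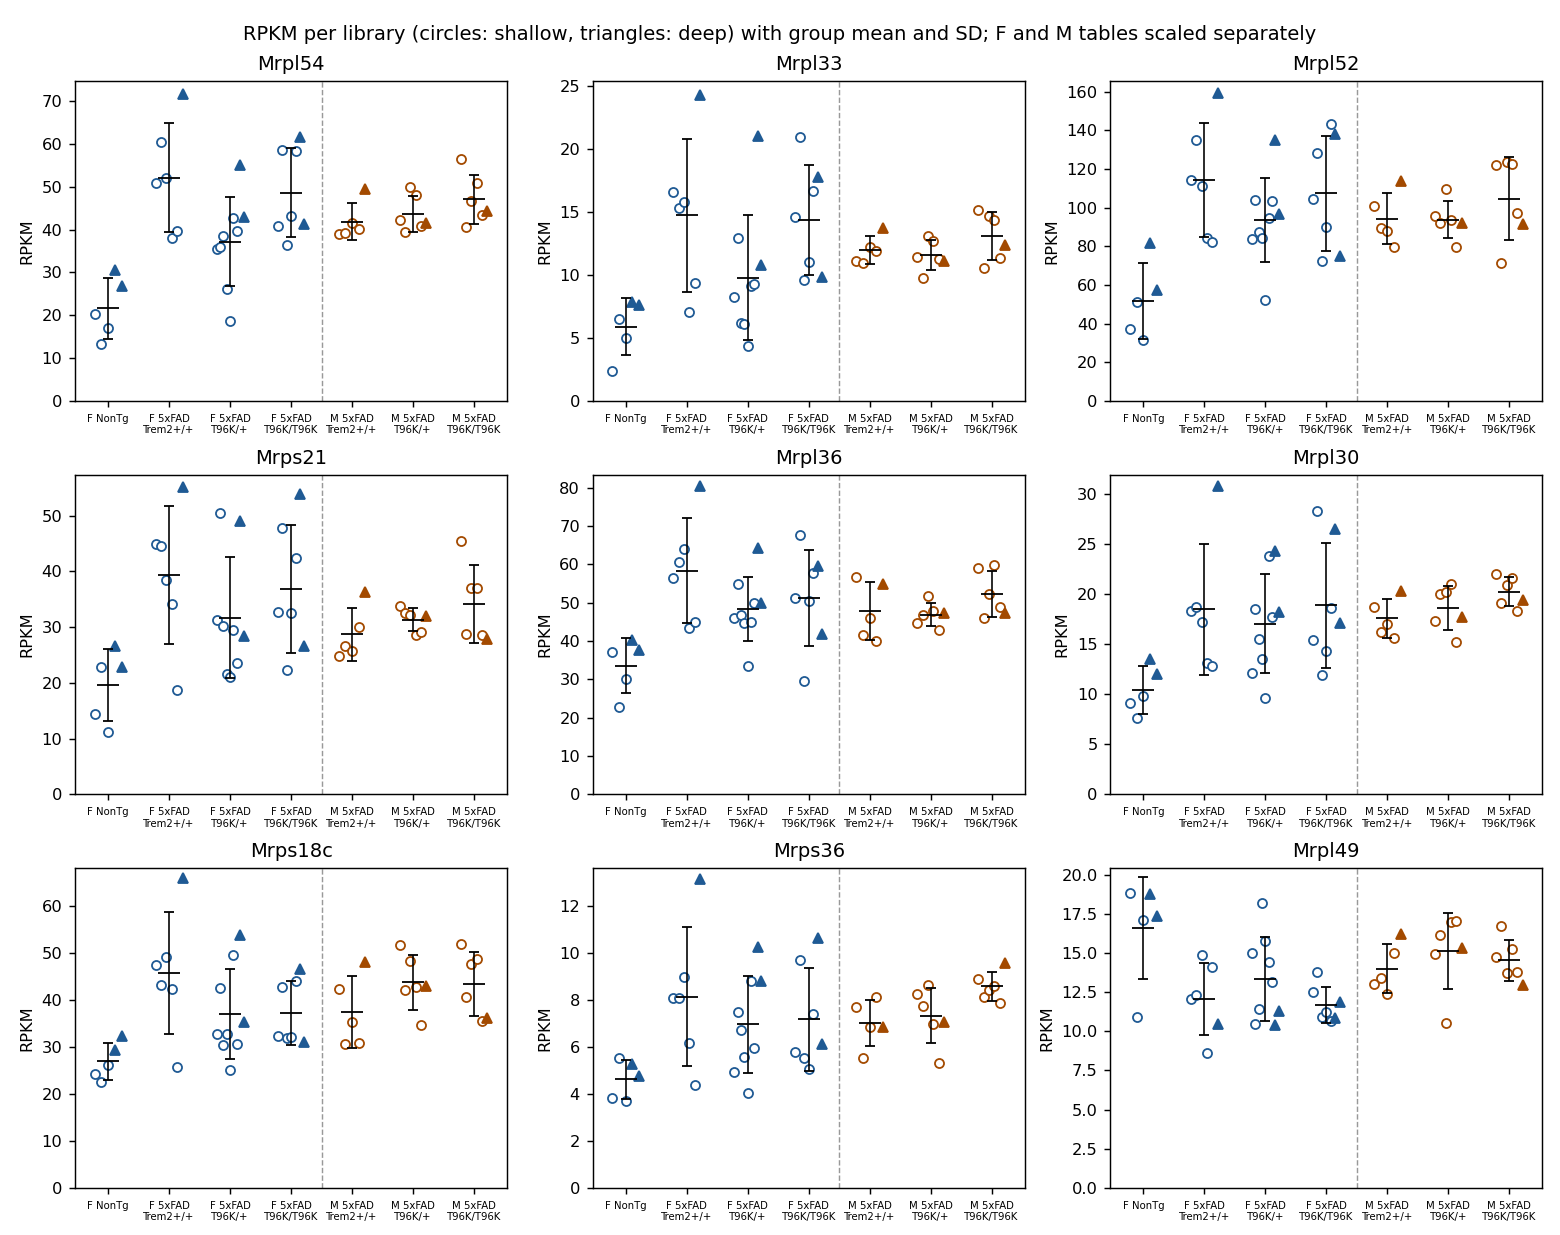
RPKM of each library for the 9 members with the largest called changes between 5xFAD Trem2+/+ and NonTg females (panels), by genotype group (F female, M male), with filled triangles for deep libraries, open circles for shallow ones, and a bar and whiskers for the group mean and SD. All Trem2+/+ libraries of Mrpl54 lie above all NonTg libraries (38.1 or more against 30.4 or less), and Mrpl49 is the panel in which NonTg is highest.

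The median difference was largest for the members with the shortest proteins and smallest for those with the longest. Members with 150 codons or fewer in their longest annotated coding sequence included 12 of 22 called higher, with a median log2 difference of 0.54. Those with up to 200 codons included 5 of 17 called higher and 1 lower (median 0.29), those with up to 250 codons 1 of 9 (median 0.30), and those above 250 codons 4 of 27 (median 0.09). Across the 75 members the log2 difference and the log2 coding length had a Pearson correlation of −0.60 and a Spearman correlation of −0.60; the points share their libraries, and no p is given. Over the tested genes with an annotated coding length the medians fell from class to class, at 0.33, 0.19, 0.11 and −0.05. Of these genes, 30.9%, 27.2%, 19.6% and 10.1% were called higher. The members' median lay above that of these genes in each of the 4 classes. The proteins with the largest rises, Mrpl54, Mrpl33, Mrpl52, Mrps21 and Mrpl36, have 135, 107, 121, 87 and 102 codons.

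**Figure D3:**
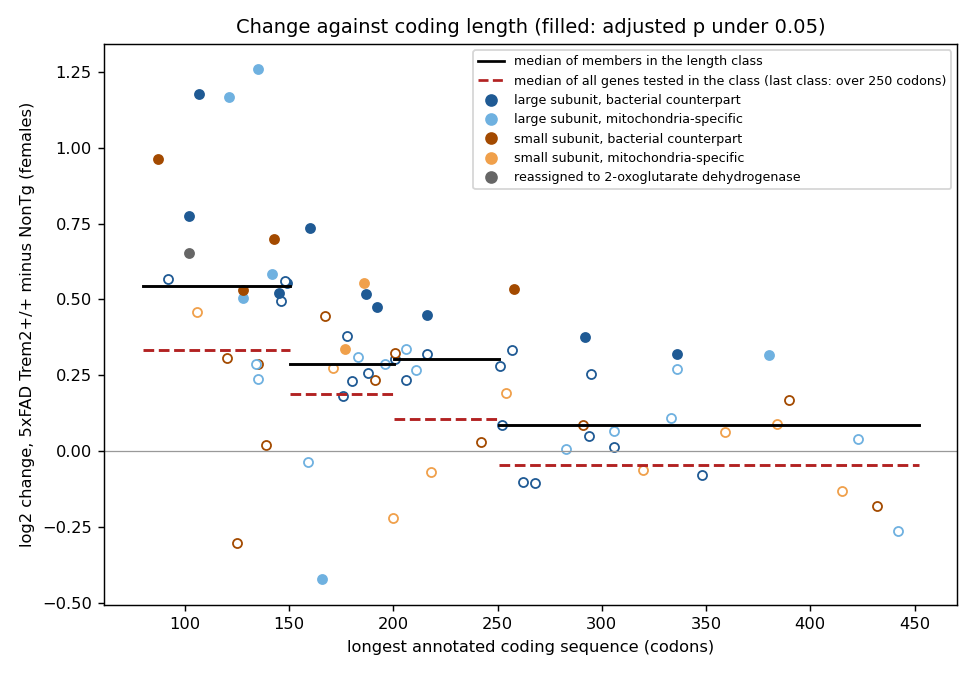
Log2 difference between female 5xFAD Trem2+/+ and NonTg libraries against coding length in codons for the 75 members (points, filled where called). In 4 length classes, solid lines mark the members' median and dashed lines the median of all tested genes with a coding length. Both medians are highest in the shortest class (0.54 and 0.33) and lowest in the longest (0.09 and −0.05); with libraries rescaled to an equal sum of RPKM the median of all 75 members is −0.29.

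The T96K genotypes were compared with the same 5 NonTg libraries, so the following differences share their controls with those above. In T96K/+ females 6 members were called higher than in NonTg and 0 lower, with a median difference of 0.13 (all genes 0.03), where 10.3% of all genes were called higher and 7.07% lower, 17.3% in all. Without the library labelled 22, 5 were called higher and 1 (Mrps6) lower, where 1502 of 14591 genes were called higher and 1089 lower. Endothelial markers were called lower for 6 of 8 genes in T96K/+ (median −0.99), and with the marker covariates 0 members were called and the members' median was 0.01. In T96K/T96K females 6 were called higher and 1 lower, with a median of 0.20 (all genes 0.03), where 10.3% of all genes were called higher and 5.05% lower, 15.3% in all. There 1 of 8 endothelial markers was called lower (median −0.62), and the marker covariates left 2 members higher and 1 lower. The part of other cells was not tested beyond this, and the share of all genes called with the covariates is not given here. After rescaling to an equal sum the members' medians turned to −0.35 and −0.34 (all genes −0.40 and −0.45), with 0 higher and 43 lower in T96K/+ and 3 higher and 41 lower in T96K/T96K. As the medians of all genes fell too, these counts after rescaling do not describe the members alone. On RPKM as deposited, 8.00% of the members were called higher in each genotype taken on its own, below the 10.3% of all genes. The members called were not all the same in the T96K/+ and T96K/T96K comparisons. Leaving out 1 library gave 1 to 8 calls in T96K/+ (1 without NonTg 24, 2 without NonTg 4 or T96K/+ 26, and 3 without T96K/+ 8, 23 or 33). It gave 3 to 13 calls in T96K/T96K (3 without NonTg 24 or T96K/T96K 27, 4 without NonTg 4, and 13 without T96K/T96K 34). The shares of all genes called with 1 library left out are not given here either.

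Mrpl54, Mrpl52, Mrpl30 and Mrpl36 were called higher in all 3 comparisons with NonTg, although the T96K/+ call of Mrpl30 was lost without library 22. Mrpl54 stood from 18.7 to 54.98 with a median of 38.5 RPKM in T96K/+ and from 36.4 to 61.6 with a median of 43.3 in T96K/T96K females, with log2 differences of 0.76 ± 0.21 and 1.17 ± 0.22 (adjusted p = 0.0134 and 0.000507). All T96K/T96K libraries of Mrpl54 lay above all NonTg ones, whereas the lowest T96K/+ libraries lay among them. Mrpl52 stood from 52.4 to 134.9 with a median of 94.9 RPKM in T96K/+ and from 72.2 to 143.5 with a median of 104.5 in T96K/T96K females, with overlap in both and log2 differences of 0.88 ± 0.22 and 1.07 ± 0.23 (adjusted p = 0.00652 and 0.00196). Mrpl30 differed by 0.63 ± 0.22 and 0.77 ± 0.23, and Mrpl36 by 0.52 ± 0.18 and 0.58 ± 0.18; the T96K/+ difference of Mrpl36 turned to just below 0 after rescaling to an equal sum. Mrpl24 (0.40, adjusted p = 0.0305) and Mrps18a (0.31, adjusted p = 0.0463) were also called in T96K/+, and both turned negative after rescaling. Exons of another gene cover 26.3% of those of Mrpl24, so its values are uncertain. The same holds for Mrpl19 (36%), called higher in Trem2+/+ females, and for Mrps6 (43.8%) and Mrps18b (30.5%). Mrpl33 (1.19 ± 0.31, adjusted p = 0.00828) and Mrps21 (0.88 ± 0.26, adjusted p = 0.0227) were also called in T96K/T96K. Mrpl33 in T96K/+ was at 0.61 ± 0.29 (adjusted p = 0.162). Mrpl49 was lower in T96K/T96K, at -0.45 ± 0.14 (adjusted p = 0.0331), with libraries from 10.6 to 13.8 with a median of 11.2 RPKM.

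Groups in which every library lay above every NonTg library were found for 3 members in 5xFAD Trem2+/+ (Mrpl36, Mrpl52 and Mrpl54, against 5.83% of all genes), 0 in T96K/+ (against 3.90%; without library 22 also 0, against 4.63%) and 4 in T96K/T96K (Mrpl13, Mrpl32, Mrpl33 and Mrpl54, against 5.81%). As shares of the 75 members these are 4%, 0% and 5.33%, near or below the background.

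Averaged over the 75 members, the mean log2(RPKM + 1) of a library was 3.53 to 3.95 in NonTg females, with a group mean of 3.75 ± 0.165 (SD, n = 5). It was 4.04 ± 0.215 in Trem2+/+ (n = 6), 3.91 ± 0.140 in T96K/+ (n = 9) and 3.97 ± 0.159 in T96K/T96K females (n = 7), and every 5xFAD group overlapped NonTg. The ribosomal proteins of the cytosol, measured in the same libraries, were further apart: their mean was 4.88 ± 0.542 in NonTg and 6.46 ± 0.560 in Trem2+/+ females, and 78 of 81 were called higher, with a median log2 difference of 1.66, which was 1.08 after rescaling to an equal sum. In both sets the deep libraries of NonTg lay above its shallow ones. Among shallow libraries alone, 21 members were called higher and 1 lower in Trem2+/+ against NonTg, with a median of 0.33. The share of all genes called among shallow libraries is not given here, so this count has no background beside it. Among deep libraries alone the median was 0.43, with 0 called by limma from 2 NonTg libraries and 1 Trem2+/+ library, where the lone library is assumed to vary like the others.

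**Figure D4:**
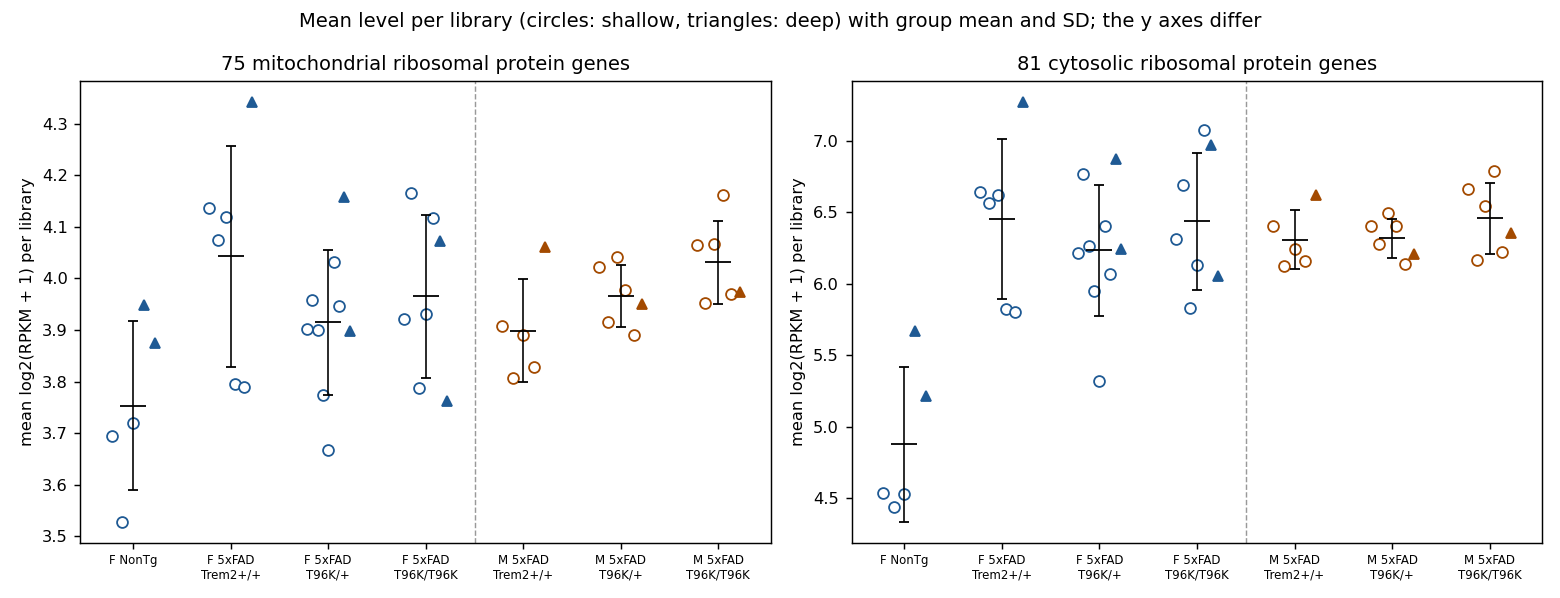
Mean log2(RPKM + 1) per library over the 75 mitochondrial (left) and the 81 cytosolic (right) ribosomal protein genes by genotype group, with triangles for deep and circles for shallow libraries and whiskers for the SD around the group mean. NonTg females have the lowest group mean in both panels (3.75 and 4.88), and the highest NonTg library lies above the lowest T96K/+ library in both (5.67 against 5.32 on the right); after rescaling to an equal sum of RPKM the members' median difference from NonTg is negative in all 3 female 5xFAD groups.

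Within 5xFAD, 0 of 75 members were called between any Trem2 genotypes in either sex by limma, where 0% of all genes were called; voom on the reads recovered from the values also called 0 members in each. In T96K/+ against Trem2+/+ females the members' median was −0.12 (all genes 0.00), 9 of 75 were positive, and 6 members had an unadjusted p under 0.05, as had 523 of 14591 genes. Without library 22 the median was −0.14, with 9 of 75 positive and 4 members at an unadjusted p under 0.05 (457 of all genes). The smallest p belonged to Mrpl38 at -0.26 ± 0.10 (15.2 ± 2.18 to 12.5 ± 1.89 RPKM), Mrpl54 at -0.50 ± 0.20 and Mrps30 at 0.28 ± 0.12, and the smallest adjusted p of a member was 0.994. In T96K/T96K against Trem2+/+ females the median was −0.08, 12 of 75 were positive, and 0 members had an unadjusted p under 0.05 (544 of all genes). Mrpl35 (-0.27 ± 0.14), Mrpl44 (-0.21 ± 0.12) and Mrps14 (-0.28 ± 0.16) came first (smallest adjusted p 0.974). T96K/T96K against T96K/+ females gave a median of 0.05, with 54 of 75 positive and 2 at an unadjusted p under 0.05 (without library 22, 0.06, 58 and 2), and Mrpl33 (0.58 ± 0.26), Mrpl54 (0.40 ± 0.19) and Mrps9 (0.18 ± 0.09) came first (smallest adjusted p 0.978). With the endothelial and oligodendrocyte markers as covariates, 1 member was called higher and 1 lower in that last comparison, where Mrpl33 was at 0.87. The share of all genes called in that covariate fit is not given here, so these calls are not shown to be particular to the members. Among shallow libraries alone the T96K/T96K median against Trem2+/+ turned to 0.01, as it did with the marker covariates, at 0.03.

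In males the members' medians against Trem2+/+ were positive. The male groups also differed in markers of other cells. Endothelial markers had a median sum of 607 RPKM in Trem2+/+, 1621 in T96K/+ and 888 in T96K/T96K males. For neutrophil markers it was 4116, 2888 and 5332. The ranges of the groups overlapped for both, and the part of other cells was not tested with these sums. T96K/+ against Trem2+/+ males gave a median of 0.08 (all genes −0.02), 56 of 75 positive and 3 members at an unadjusted p under 0.05 (1703 of 13845 genes). Mrpl50 went from 8.12 ± 1.501 to 10.7 ± 1.63 RPKM, a log2 difference of 0.37 ± 0.13 (adjusted p = 0.307), ahead of Mrpl46 (0.26 ± 0.09) and Mrpl32 (0.28 ± 0.12). T96K/T96K against Trem2+/+ males gave a median of 0.15 (all genes 0.00), 66 of 75 positive and 19 members at an unadjusted p under 0.05 (1193 of all genes). Mrps11, a small-subunit protein with a bacterial counterpart, stood at 6.08, 6.31, 6.46, 6.56 and 7.08 RPKM in the 5 Trem2+/+ males and from 7.41 to 8.9999 with a median of 8.45 in the 6 T96K/T96K males. All T96K/T96K libraries lay above all Trem2+/+ ones, and the log2 difference was 0.31 ± 0.07 (adjusted p = 0.316), which does not pass. Mrps11 was picked as the member with the smallest p. The share of all genes whose libraries separate in this comparison is not given here. Mrpl13 (0.26 ± 0.07) and Mrpl2 (0.21 ± 0.06) came next. T96K/T96K against T96K/+ males gave a median of 0.07, 61 of 75 positive and 5 at an unadjusted p under 0.05 (342 of all genes), led by Mrps28 (0.27 ± 0.10), Mrps11 (0.18 ± 0.06) and Mrpl23 (0.24 ± 0.10), with a smallest adjusted p of 0.999. Rescaling to an equal sum turned that median to −0.03 (all genes −0.07).

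The difference of the T96K effects between the sexes was tested in 1 fit over both tables, with female minus male as the sign, over 13636 genes. For T96K/+ the median over the members was −0.21 (all genes 0.00), 9 of 75 were positive, 9 had an unadjusted p under 0.05 (643 of all genes), and 0 were called (0% of all genes; smallest adjusted p 0.928). Without library 22 the median was −0.23, again with 9 positive, 9 at an unadjusted p under 0.05 (827 of all genes) and 0 called. The smallest p belonged to Mrpl12 (-0.39 ± 0.15), Mrpl46 (-0.33 ± 0.15) and Mrps18c (-0.51 ± 0.23). For T96K/T96K the median was −0.23 (all genes 0.00), 9 of 75 were positive, 10 had an unadjusted p under 0.05 (760 of all genes), and 0 were called (smallest adjusted p 0.865). Mrpl12 (-0.40 ± 0.15), Mrpl44 (-0.42 ± 0.17) and Mrpl28 (-0.45 ± 0.18) came first. Mrpl12, first in both, stood at 14.3 ± 2.18, 11.97 ± 1.40 and 12.3 ± 2.16 RPKM in Trem2+/+, T96K/+ and T96K/T96K females and at 10.5 ± 0.453, 11.8 ± 1.09 and 12.2 ± 1.61 in males, and the genotypes overlapped within each sex. The 2 sets of Trem2+/+ libraries each serve in both effects of their sex, and the medians share them.

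**Figure D5:**
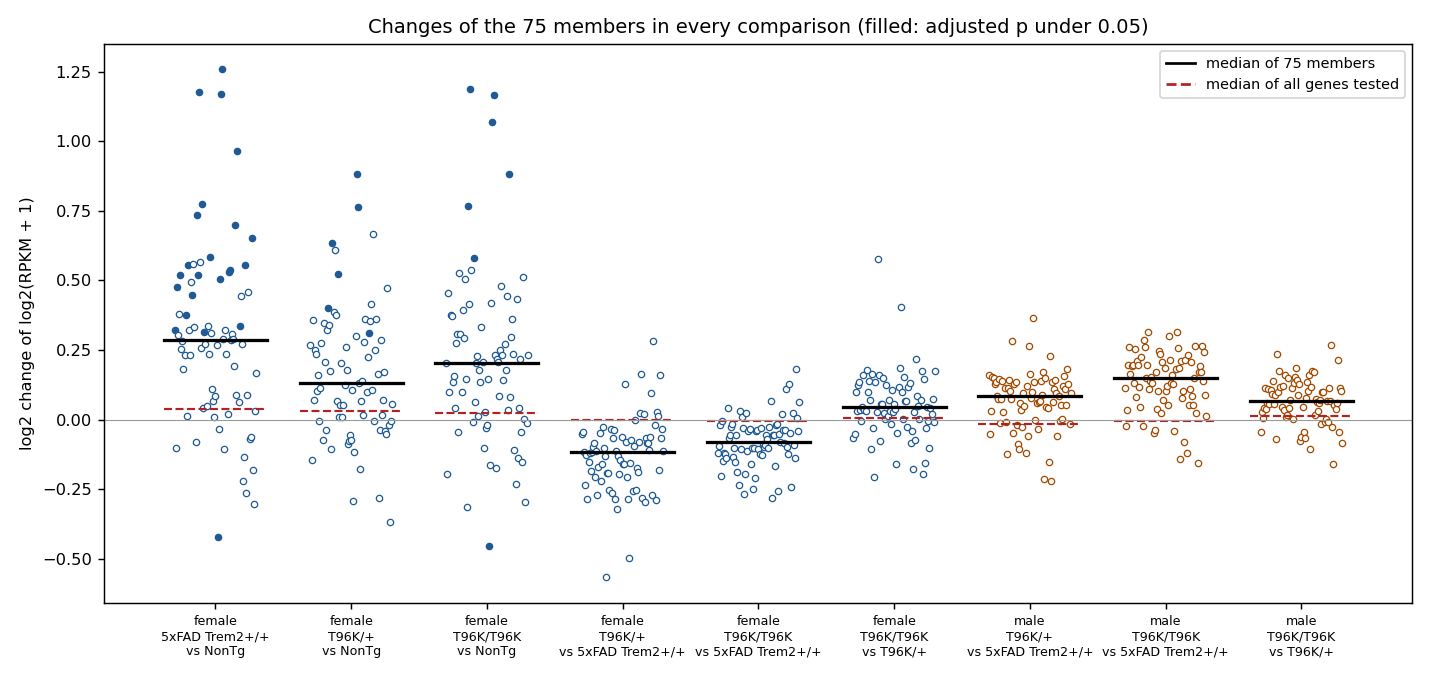
Log2 difference of each of the 75 members (points, filled where called) in 6 female and 3 male comparisons, with a solid line for the members' median and a dashed line for the median of all genes tested. Filled points appear only in the 3 comparisons with NonTg, the medians of T96K/+ and T96K/T96K against Trem2+/+ are negative in females (−0.12 and −0.08) and positive in males (0.08 and 0.15), and rescaling to an equal sum of RPKM turns the 3 medians against NonTg negative.

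Other genes of mitochondrial translation were compared between 5xFAD Trem2+/+ and NonTg females, on RPKM as deposited. Of 7 subunits of the ribosome that carry other names, Mrp63 (0.58 ± 0.17, adjusted p = 0.0125) and Chchd1 (0.65 ± 0.23, adjusted p = 0.0431) were called higher and 0 lower, while Dap3, a small-subunit GTP-binding protein, was at −0.21 ± 0.09 (adjusted p = 0.0783). Of 14 translation factors, such as the elongation factor Tufm (0.23 ± 0.16), 0 were called by limma, 1 had an unadjusted p under 0.05, and the median was 0.02. Of 23 genes for assembly of the ribosome and modification of its RNA, Fastkd2 was higher (0.50 ± 0.15, adjusted p = 0.0175) and Ngrn lower (−0.43 ± 0.12, adjusted p = 0.0118), with a median of 0.03. Of 17 mitochondrial aminoacyl-tRNA synthetases, Lars2 was higher (2.27 ± 0.53, adjusted p = 0.00271) and Pars2 lower (−0.51 ± 0.16, adjusted p = 0.0183), with a median of 0.04. Of 10 genes for maintenance and transcription of mitochondrial DNA, the single-strand binding protein Ssbp1 was higher (0.57 ± 0.16, adjusted p = 0.0104), whereas Tfam was at 0.02 ± 0.13. Of 9 regulators of mitochondrial biogenesis, 0 were higher and 1 was lower, the GABP subunit Gabpb1 (−0.41 ± 0.14, adjusted p = 0.0375), and Nrf1 was at −0.36 ± 0.14 (adjusted p = 0.0564). Against the same NonTg libraries, Lars2 differed by 1.84 ± 0.49 in T96K/+ and 2.18 ± 0.51 in T96K/T96K females, Ngrn by −0.44 ± 0.11 and −0.46 ± 0.12, Mrp63 by 0.50 ± 0.15 and 0.57 ± 0.16, Gabpb1 by −0.38 ± 0.13 and −0.46 ± 0.14, and Pars2 by −0.47 ± 0.14 and −0.44 ± 0.15, and each of these was called. Without library 22 the T96K/+ calls of Gabpb1 and Chchd1 were lost. Chchd1 (0.66 ± 0.21), Fastkd2 (0.40 ± 0.14) and Ssbp1 (0.45 ± 0.15) were called in T96K/+ and not in T96K/T96K, where they were at 0.59 ± 0.22, 0.25 ± 0.15 and 0.43 ± 0.15; these differences were not tested against each other. Within 5xFAD and between the sexes, 0 genes of these lists were called by limma. Genes encoded by mitochondrial DNA were not analysed here.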

How the data were processed

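RNA was sequenced from sorted brain microglia of 44 libraries in 7 groups, 27 female and 17 male. The authors deposited RPKM values in 2 tables, 1 per sex, scaled separately; per the submitters' processing notes, the authors used STAR, HTSeq and edgeR, with no versions given, and the mm9 build. Per the labels' protocols, cDNA was amplified with SMART-Seq v4 and libraries were made with Nextera XT, so that strand is not marked. The values were whole multiples of 1 read in all genes within 0.01 reads, which gave 5.89 to 42.4 M reads per library.

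Genes with 1 RPKM or more in 5 libraries of a table were kept. Differences were fitted with limma 3.58.1 in R 4.3.3 (trend and robust) on log2(RPKM + 1), with 1 mean per group and Benjamini-Hochberg adjustment over all genes of the table, and a pseudocount of 1 understates changes of low genes. The sex difference was an interaction in 1 fit. The method was tested on simulated data, for 5xFAD Trem2+/+ against NonTg females with 14591 genes. It called 74.6% of genes changed 2-fold and 28.4% of those changed 1.5-fold. Each gene was simulated independently, from a normal distribution, and the few changed genes were picked above a floor of level. In the data members moved together and a larger share of genes was called, so these rates may not carry over.

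The named genes were the 8 called members with the largest rise and fall in each comparison with NonTg, the 4 highest and 4 lowest in level, the 3 smallest p in each comparison within 5xFAD, 14 listed members, and up to 4 called genes of each pathway list. The members and lists were chosen with earlier results of these data known. Alternatives were the pseudocount, the filter, the scaling, depth, marker covariates and single libraries left out. Gene coordinates are from the mm9 annotation, and promoter sequences are RefSeq, on GRCm38.p6.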

Additional observations from a re-analysis of the deposited data

Results flagged for a closer look

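The level of each of the 40 named members was compared between the libraries of its group, and a library was picked out where its gap to the nearest other library was a large part of the range of the group by Dixon's criterion. This occurred in 16 of 280 groups (5.71%), where chance gives about 5%. No explanation was weighed. Among 5xFAD Trem2+/+ females, the shallow library 14 stood apart for Mrps7 at 17.4 RPKM, below the other libraries at 22.5 to 25.4. Among 5xFAD Trem2+/+ females, the deep library 25 stood apart for Mrpl30 at 30.8 RPKM, above the other libraries at 12.8 to 18.7. Among NonTg females, the shallow library 10 stood apart for Mrpl4 at 40.3 RPKM, below the other libraries at 54.8 to 59.5, for Mrpl44 at 12.9 RPKM, below the other libraries at 17.9 to 19.3, and for Mrpl49 at 10.9 RPKM, below the other libraries at 17.1 to 18.8. Among T96K/+ females, the shallow library 17 stood apart for Mrpl45 at 5.99 RPKM, below the other libraries at 8.81 to 10.7. Among T96K/+ females, the shallow library 22 stood apart for Mrpl50 at 14.2 RPKM, above the other libraries at 7.18 to 9.48. Among T96K/+ females, the deep library 26 stood apart for Mrpl42 at 129 RPKM, above the other libraries at 63.6 to 96.1. Among T96K/T96K females, the shallow library 20 stood apart for Mrps18b at 4.30 RPKM, above the other libraries at 2.31 to 2.95. Among 5xFAD Trem2+/+ males, the deep library 21 stood apart for Mrpl28 at 45.0 RPKM, above the other libraries at 30.04 to 33.9, for Mrpl50 at 10.8 RPKM, above the other libraries at 7.28 to 7.55, for Mrpl54 at 49.4 RPKM, above the other libraries at 39.0 to 41.5, and for Mrps12 at 23.8 RPKM, above the other libraries at 16.5 to 18.3. Among T96K/+ males, the shallow library 8 stood apart for Mrpl49 at 10.5 RPKM, below the other libraries at 14.9 to 17.02. Among T96K/T96K males, the shallow library 11 stood apart for Mrpl4 at 59.0 RPKM, above the other libraries at 50.5 to 53.4, and for Mrpl47 at 4.64 RPKM, above the other libraries at 3.11 to 3.45.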

How the results depend on the processing

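Of 1429 values of 40 named members under the alternatives, 1234 kept their side of the threshold, with the same direction where called and within the spread between replicates where not, 149 lost the call, 10 gained it, 14 changed sign with a call in at least 1 of the fits, and 22 values with no call moved by more than the spread between replicates. Among the 1234 and the 22, 33 values took the other sign without a call in either fit. The 14 came with RPKM rescaled to an equal sum per library, an alternative chosen after seeing the data, as was voom on recovered reads. In T96K/+ against NonTg females these were Mrpl36 (−0.0016), Mrpl24 (−0.0642) and Mrps18a (−0.1889). In 5xFAD Trem2+/+ against NonTg they were Mrpl42 (−0.0305), Mrpl4 (−0.5618), Mrpl47 (−0.4063), Mrpl12 (−0.2739), Mrps12 (−0.5751), Mrpl44 (−0.48), Mrps22 (−0.4941), Mrps7 (−0.5672), Mrps2 (−0.4838), Mrpl45 (−0.5026) and Mrps18a (−0.2911). The cause was not tested.

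The number of members called in 5xFAD Trem2+/+ against NonTg females (23) was 14 without the filter, 13 after quantile normalization, 0 among deep libraries alone, 0 with the marker covariates, 38 after rescaling, and 7 to 26 with 1 library left out. For T96K/+ (6) it was 3 without the filter, 11 with the depth set as a covariate, 0 among deep libraries, 0 with the marker covariates, 43 after rescaling, and 1 to 8 with 1 library left out; voom gave 4. For T96K/T96K (7) it was 14 with the depth set as a covariate, 19 among shallow libraries alone, 0 among deep libraries, 3 with the marker covariates, 44 after rescaling, and 3 to 13 with 1 library left out. In T96K/T96K against T96K/+ females the marker covariates gave 2 calls in place of 0. Leaving out 1 library gave 0 calls in each of the other 8 comparisons. After rescaling, the medians of all genes against NonTg were below 0 too, so the counts after rescaling do not describe the members alone. For the other alternatives in this paragraph the share of all genes called is not given here, so those counts have no background beside them.

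No paired analysis was possible because the groups within a table share no library number, and numbers recur only across the separately scaled tables of the sexes. The edgeR and DESeq2 alternatives were not run, and voom on the recovered reads took their place. The deep libraries of the males could not be fitted, since each male group has 1. Genes near 1 RPKM, such as Mrps34, rest on few reads in shallow libraries. NonTg males were not analysed here.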
